A study of Mus musculus with 10 samples.

Results

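The 10 genes described here mark GABAergic interneurons, the inhibitory neurons of the cortex, and were taken by symbol from a given list: Dlx1, Dlx2, Dlx5, Dlx6, Lhx6, Gad1, Gad2, Sst, Npy and Calb2. All 10 were found among the 23235 genes of both expression tables. Their levels were compared between Chd8 knockdown and control in sorted, electroporated cells of the embryonic mouse cortex. Chd8 encodes a chromatin remodeler of the CHD family. GFP-positive cells were collected from cortices at embryonic day 15, after plasmids carrying GFP and an shRNA had been introduced in utero at embryonic day 13, and each replicate pooled the cortices of 3 to 5 embryos. The new set held 3 pools with Chd8 shRNA and 3 with control shRNA (replicates 10, 11 and 12 of each). The first set held 2 pools with another Chd8 shRNA and 2 with control shRNA (replicates 1 and 2 of each). Between the sets the shRNA, the batch and the expression table all change, so their parts cannot be told apart. No mouse strain is given in the labels, and electroporation reaches only part of the progenitors, so a pool holds the transfected cells and whatever the GFP gate let through.

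Cortical GABAergic interneurons are not born in the cortical wall that is electroporated. In the mouse they arise in the ganglionic eminences of the ventral forebrain, where Dlx homeodomain factors and, in the medial eminence, Lhx6 act, and they migrate tangentially into the cortex. The dorsal wall itself gives rise to glutamatergic neurons through radial glia and intermediate progenitors. The level of interneuron genes in sorted dorsal cells therefore also reads the purity of the sort. In bulk samples such as these, fewer cells of a type and less RNA per cell cannot be told apart.

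In the new set 9 of the 10 genes were lower in all 3 knockdown pools than in all 3 control pools, with means of 20.1% to 49.9% of control, and Npy was the exception. For comparison, 14.9% of the genes above 0 in at least 1 library had all knockdown pools below all controls. The groups overlapped for 8 of the 10 genes in the first set. Sst, which encodes the neuropeptide somatostatin, was the only one of the 10 below its controls in every knockdown pool of both sets. In the first set 25.9% of the genes above 0 in at least 1 library had all knockdown pools below all controls. The share of genes for both sets together was not counted. Sst and Npy are both neuropeptide genes of cortical interneurons, and they differed in the new set. Their upstream sequences are shown with that of Dlx2, one of the genes called lower in the new set. They are the 250 bases before the annotated start in RefSeq, build GRCm38.p6, 5′ to 3′ on the strand of the gene, and capitals mark motif matches.
Sst, chr16:23890845-23891094, minus strand: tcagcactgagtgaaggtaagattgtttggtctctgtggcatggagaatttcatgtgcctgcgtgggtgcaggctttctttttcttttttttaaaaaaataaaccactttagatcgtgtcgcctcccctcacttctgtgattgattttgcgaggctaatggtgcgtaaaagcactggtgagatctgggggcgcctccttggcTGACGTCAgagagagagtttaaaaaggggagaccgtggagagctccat
Npy, chr6:49822460-49822709, plus strand: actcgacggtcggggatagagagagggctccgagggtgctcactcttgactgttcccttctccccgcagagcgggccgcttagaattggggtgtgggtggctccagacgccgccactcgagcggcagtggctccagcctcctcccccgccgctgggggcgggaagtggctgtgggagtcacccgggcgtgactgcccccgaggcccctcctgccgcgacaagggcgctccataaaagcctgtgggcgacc
Dlx2, chr2:71546755-71547004, minus strand: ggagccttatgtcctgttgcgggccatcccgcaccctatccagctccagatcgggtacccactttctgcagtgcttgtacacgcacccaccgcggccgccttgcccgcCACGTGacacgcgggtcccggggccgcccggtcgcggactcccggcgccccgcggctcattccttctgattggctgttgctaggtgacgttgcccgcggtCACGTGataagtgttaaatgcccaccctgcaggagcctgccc
The Sst sequence holds a cAMP response element, TGACGTCA, at 48 to 41 bases before the start, a motif found in 1.55% of the 32851 RefSeq promoter windows of this length. The Dlx2 sequence holds the E-box CACGTG at 142 to 137 and at 42 to 37 bases before the start, and 6.02% of windows hold that motif. The Npy sequence matched none of the 4 motifs searched on both strands, which also included the homeodomain core TAATTA and the TATA box TATAAA. Upstream sequences were available for 7 of the 10 genes. TAATTA was in 0 of the 7, against 4.84% of all windows. Such matches describe letters only.

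Values are FPKM, fragments scaled by transcript length and by library size, as deposited. Levels of different genes are therefore compared per length, but levels are set side by side and not tested across the 2 tables, which were made separately. Absolute depth is unknown. From the steps between low values, relative depth in the new set was 0.958 to 1.39 times that of control 10. In the first set the knockdown pools had 0.528 and 0.529 times the depth of control 1, and control 2 had 1.22 times. The first-set knockdown pools also carried signal on olfactory receptor genes, the odorant receptors of the nose. With pseudogenes left out, the 1096 such genes averaged 0.672 and 0.557 FPKM in the knockdown pools, against 0.0036 and 0.00817 FPKM in the controls. Leaving them out was a choice made after seeing the data. With pseudogenes, the 1118 genes averaged 1.39 and 0.993 FPKM in the knockdown pools, against 0.0181 and 0.0217 FPKM in the controls. Low levels in those knockdown pools stand on that background, and its part in the first-set results was not tested beyond subtracting it. Chd8, the target, had 2.09, 1.84 and 1.92 FPKM in the new knockdown pools, against 3.59, 3.30 and 4.02 FPKM in the controls (log2 fold change −0.65, SE 0.117, limma adjusted p = 0.0213). In the other set it had 8.55 and 9.23 FPKM with knockdown, against 12.4 and 13.8 FPKM in the controls (log2 fold change −0.51, SE 0.233, not called at adjusted p = 0.152). Both sets thus had Chd8 below every control of the set.

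The tissue label was checked against 17 dorsal cortex genes such as Emx1, Neurod6 and Tbr1. All 17 were above 1 FPKM in every library, and their summed level was 2732 to 2860 FPKM in new-set knockdown pools and 2380 to 2532 FPKM in the controls. The 10 interneuron genes summed to 15.1, 17.5 and 13.7 FPKM in the knockdown pools, which was 0.553%, 0.611% and 0.491% of the dorsal sum. In the controls they summed to 28.8, 35.7 and 22.4 FPKM, or 1.20%, 1.50% and 0.887% of it. The knockdown pools lay below all controls on both measures. The rise of the dorsal sum came from Neurod6, at 1362 ± 127 FPKM with knockdown and 936 ± 64.6 FPKM in the controls (SD, n = 3 each). Of the 17 genes limma called 2 higher and 5 lower, where it called 3.84% of all tested genes higher and 5.15% lower. Without Neurod6 the interneuron sum was 1.03%, 1.29% and 0.930% of the other 16 genes in the knockdown pools, against 1.91%, 2.61% and 1.38% in the controls, again with no overlap. The first-set interneuron sum was 1.41% and 3.76% of the dorsal sum in the knockdown pools, against 2.36% and 1.10% in the controls, so the groups overlapped.

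**Figure D1:**
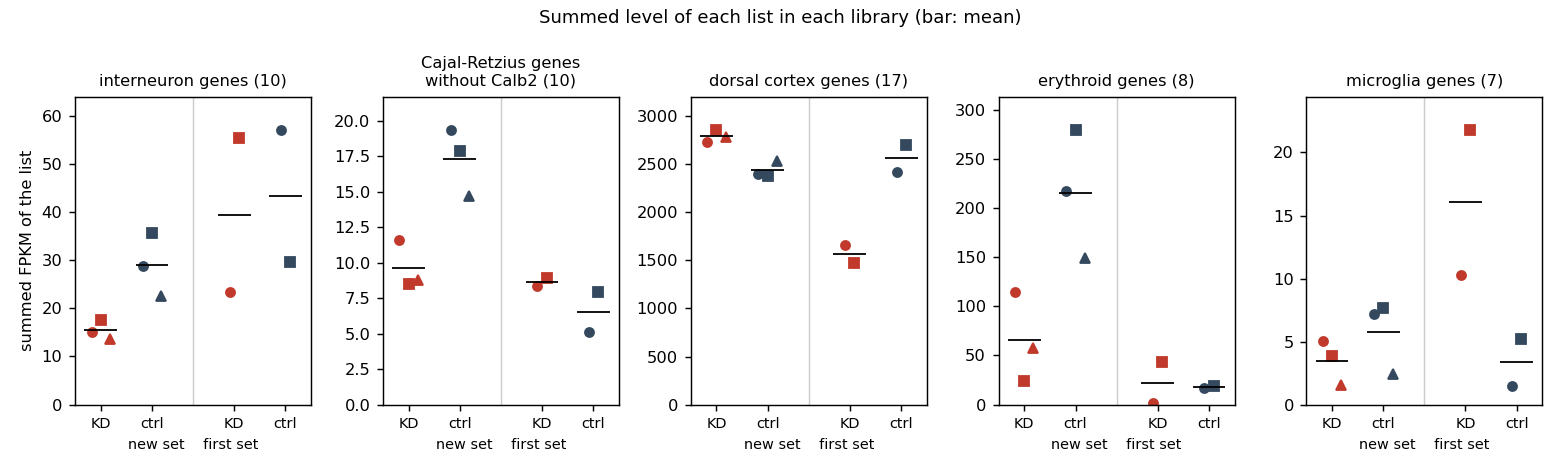
Summed FPKM of 5 gene lists in each library, with knockdown (red) left of control (blue) in each set and a bar at the mean. In the new set the interneuron genes and the Cajal-Retzius genes sit lower in all 3 knockdown pools, at 13.7 to 17.5 and 8.52 to 11.6 FPKM, and the first-set interneuron sums overlap.

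Dlx1, Dlx2, Dlx5 and Dlx6 encode the homeodomain factors of ventral progenitors and of migrating interneuron precursors. New-set values follow replicates 10, 11 and 12. Dlx2 had 0.617, 1.51 and 0.782 FPKM in the knockdown pools, against 3.77, 4.12 and 2.19 FPKM in the controls. Dlx5 had 0.394, 0.715 and 0.517 FPKM in the knockdown pools, against 1.73, 2.03 and 1.09 FPKM in the controls. For both genes every knockdown pool lay below every control. On the log2(FPKM + 1) scale, which understates the change of low genes, Dlx2 fell by 1.14 (SE 0.228, limma adjusted p = 0.0270), and its knockdown mean was 28.9% of control. Dlx5 fell by 0.75 (SE 0.169, adjusted p = 0.0360), to 33.6% of control. Genes were tested from a minimum mean of 1 FPKM over the libraries of a set. Dlx2 and Dlx5 averaged 0.971 and 0.542 FPKM with knockdown and reached that minimum only through their controls. With no minimum neither was called (limma adjusted p = 0.0557 for Dlx2 and 0.0541 for Dlx5).

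Dlx1 and Dlx6 averaged under 1 FPKM over the libraries of the new set and were not tested there. Dlx1 had 0.247, 0.287 and 0.331 FPKM in the knockdown pools, against 1.10, 1.41 and 0.757 FPKM in the controls, a mean of 26.5% of control with no overlap. Dlx6 had 0, 0.0285 and 0.0418 FPKM in the knockdown pools, against 0.0819, 0.0733 and 0.0720 FPKM in the controls. Scaled for relative depth, these Dlx6 levels came to 0, 1 and 1 steps of the smallest nonzero value in the knockdown pools and 2 steps in each control, so Dlx6 rests on almost no reads. Antisense transcripts overlap both genes, and whether reads were counted by strand is not given, so Dlx1 and Dlx6 cannot be told apart from them. Dlx1as, the partner of Dlx1, had 1.28, 1.67 and 1.17 FPKM in the knockdown pools, against 3.83, 3.33 and 3.14 FPKM in the controls (log2 fold change −0.90, adjusted p = 0.0139). Dlx6as1, the partner of Dlx6, stood at 31.5% of control, likewise with no overlap.

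Lhx6 encodes the LIM-homeodomain factor of interneurons from the medial ganglionic eminence. It had 0.732, 0.750 and 0.769 FPKM in the new knockdown pools, against 2.12, 1.77 and 1.49 FPKM in the controls. The knockdown pools were close to each other and all below the lowest control. Lhx6 fell by 0.67 on the log2 scale (SE 0.128, limma adjusted p = 0.0245), to 41.9% of control. It averaged 0.750 FPKM with knockdown and likewise reached the minimum only through its controls.

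Gad1 and Gad2 encode the glutamate decarboxylases that make GABA. Gad1 had 0.0316, 0.0760 and 0.221 FPKM in the new knockdown pools, against 0.538, 0.558 and 0.539 FPKM in the controls. Gad2 had 0.289, 0.280 and 0.206 FPKM in the knockdown pools, against 0.848, 0.571 and 0.552 FPKM in the controls. Neither pair of groups overlapped, and the means were 20.1% of control for Gad1 and 39.3% for Gad2. Both lay under the 1 FPKM minimum and were not tested. With no minimum, 4 of the 10 genes were called lower by limma, against 1.79% of all genes in that fit. They were Gad1 (adjusted p = 0.0309), Sst (0.0363), Lhx6 (0.0387) and Dlx1 (0.0424).

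Sst, Npy and Calb2 mark interneuron types through a neuropeptide (Sst, Npy) or the calcium-binding protein calretinin (Calb2). Sst had 5.61, 4.75 and 5.57 FPKM in the new knockdown pools, against 9.77, 12.4 and 9.72 FPKM in the controls. Calb2 had 1.26, 0.878 and 0.895 FPKM in the knockdown pools, against 3.55, 4.73 and 2.21 FPKM in the controls. The groups did not overlap for either gene. Sst fell by 0.88 on the log2 scale (SE 0.128, limma adjusted p = 0.0138), to 49.9% of control, and Calb2 fell by 1.13 (SE 0.210, adjusted p = 0.0234), to 28.9%. Npy, the gene of neuropeptide Y, had 5.92, 8.19 and 4.35 FPKM in the knockdown pools, against 5.25, 8.01 and 3.83 FPKM in the controls. The Npy groups overlapped across their range, with a log2 fold change of 0.11 (SE 0.260, adjusted p = 0.808). Npy was higher with knockdown in all 3 pairs of the same replicate number, and was not called with the numbers as a block either (adjusted p = 0.419). Set against Npy within each library, Sst gave a ratio of 0.949, 0.579 and 1.28 in the knockdown pools and 1.86, 1.55 and 2.54 in the controls, again without overlap.

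**Figure D2:**
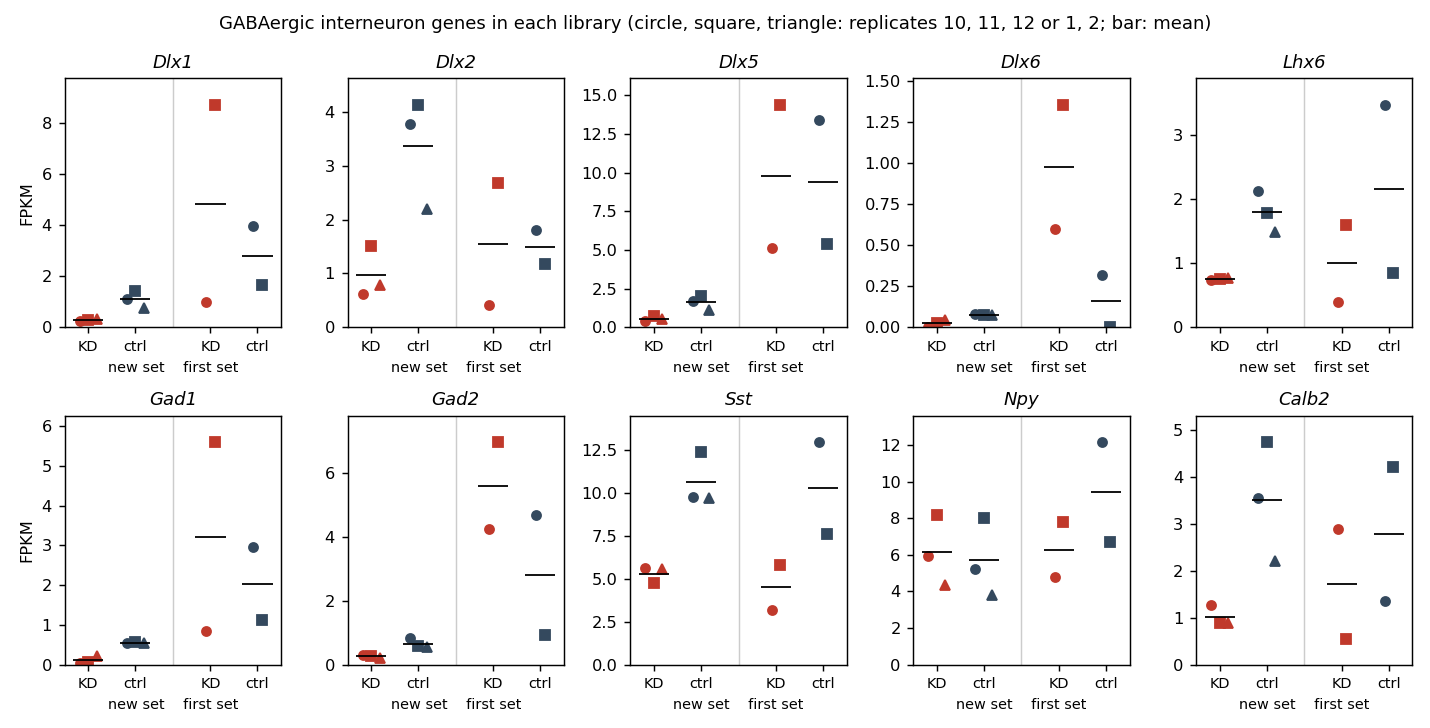
FPKM of the 10 genes in each library, with knockdown (red) left of control (blue) in each set, a bar at the mean and marker shapes for replicates. In the new set 9 genes show all knockdown pools under all controls and Npy overlaps, and in the first set only Sst does so.

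In the new set 5 of the 6 genes that reached the minimum were called lower (Dlx2, Dlx5, Lhx6, Sst and Calb2) and 0 higher, where limma called 5.15% of the 11291 tested genes lower and 3.84% higher. Dlx2, Dlx5 and Lhx6 averaged under 1 FPKM in the knockdown pools and reached the minimum through their controls, so this count is a description. The median log2 fold change of the 6 was −0.81, against 0.02 over all tested genes. For each of the 9 separated genes an exact permutation test gave p = 0.1 (two-sided), the smallest that 3 against 3 pools allow, and for Npy it gave p = 0.7. The calls rest on few pools. Without control 10, knockdown 10 or knockdown 12, 1 of the 5 (Sst) was still called, without knockdown 11 it was 0, without control 11 it was 4 and without control 12 it was 5. In the same order, these fits called 144, 153, 181, 66, 832 and 173 of all tested genes lower, against 581 in the full fit. Dlx5 dropped under the minimum without control 10 or control 11. Over these 6 fits the adjusted p reached at most 0.0767 for Dlx2, 0.106 for Dlx5, 0.0853 for Lhx6, 0.0613 for Sst and 0.0855 for Calb2, and all 5 fold changes stayed negative.

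The pools differed among themselves in a shared way. Control 12 was the lowest new control for 9 of the 10 genes (all but Gad1), and control 11 was the highest for 7. Without Npy, the other 9 genes summed to 9.18, 9.27 and 9.33 FPKM in the 3 knockdown pools, against 23.5, 27.7 and 18.6 FPKM in the controls. The knockdown pools were thus nearly equal in this sum, although single genes such as Gad1 varied by up to 6.98-fold among them.

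The order of mean levels in the new controls was Sst (10.6 FPKM), Npy (5.70), Calb2 (3.50), Dlx2 (3.36), Lhx6 (1.79), Dlx5 (1.61), Dlx1 (1.09), Gad2 (0.657), Gad1 (0.545) and Dlx6 (0.0757). Ranges of neighbours overlapped except between Sst and Npy, between Dlx2 and Lhx6, and between Gad1 and Dlx6. In the new knockdown pools Npy (6.15 FPKM) and Sst (5.31) were the top pair with overlapping ranges, and Calb2 followed at 1.01 FPKM.

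The same genes did not separate the groups of the first set, whose values follow replicates 1 and 2. Sst was the one gene with both knockdown pools below both controls, at 3.19 and 5.81 FPKM against 12.96 and 7.64 FPKM in the controls, where 25.9% of the genes above 0 in at least 1 library did so. Sst stood at 43.7% of control there, with a log2 fold change of −1.04 that was not called (SE 0.353, limma adjusted p = 0.0711). Dlx6 was the one gene above both controls, at 0.601 and 1.35 FPKM against 0.321 and 0 FPKM in the controls, where 39.1% of genes did so. The olfactory receptor mean of the same pools was 0.672 and 0.557 FPKM without pseudogenes and 1.39 and 0.993 FPKM with them. Dlx6 was under the minimum and not tested.

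The other Dlx genes and Lhx6 overlapped in the first set. Dlx1 had 0.978 and 8.72 FPKM with knockdown, against 3.98 and 1.64 FPKM in the controls. Dlx2 had 0.409 and 2.67 FPKM with knockdown, against 1.81 and 1.18 FPKM in the controls. For both genes the knockdown pools enclosed the controls. Dlx5 had 5.13 and 14.4 FPKM with knockdown, against 13.4 and 5.37 FPKM in the controls. Lhx6 had 0.400 and 1.59 FPKM with knockdown, against 3.46 and 0.843 FPKM in the controls. The log2 fold changes were 0.27 for Dlx1, −0.12 for Dlx2, 0.02 for Dlx5 and −0.59 for Lhx6, with SEs of 0.695, 0.440, 0.523 and 0.468.

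The decarboxylases and the other markers overlapped as well. Gad1 had 0.833 and 5.59 FPKM with knockdown, against 2.95 and 1.11 FPKM in the controls. Gad2 had 4.25 and 6.96 FPKM with knockdown, against 4.69 and 0.930 FPKM in the controls, a log2 fold change of 0.97 (SE 0.503, limma adjusted p = 0.197). Knockdown 2 was the highest library of the set for both enzymes. Npy had 4.77 and 7.79 FPKM with knockdown, against 12.1 and 6.71 FPKM in the controls. Calb2 had 2.89 and 0.534 FPKM with knockdown, against 1.36 and 4.20 FPKM in the controls. Of the 9 genes tested in the first set, 0 were called, and 1 (Sst) had an unadjusted p under 0.05, where limma called 10.7% of the 12461 tested genes lower and 13.2% higher. Their median log2 fold change was −0.12, against −0.15 over all tested genes. With 2 against 2 pools an exact permutation test cannot go below p = 0.3333.

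Replicate spread set the first set apart. Knockdown 2 exceeded knockdown 1 for 9 of the 10 genes, and control 1 exceeded control 2 for 9 of the 10, with Calb2 the exception in both groups. The ratio of the higher to the lower pool had a median of 3.39 over the 10 genes among the knockdown pools and 2.50 among the controls (over the 9 genes above 0 in both controls). The matching medians in the new set were 1.43 among knockdown pools (9 genes above 0 in all) and 1.70 among controls. By these medians, pools of 1 group differed more in the first set.

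**Figure D3:**
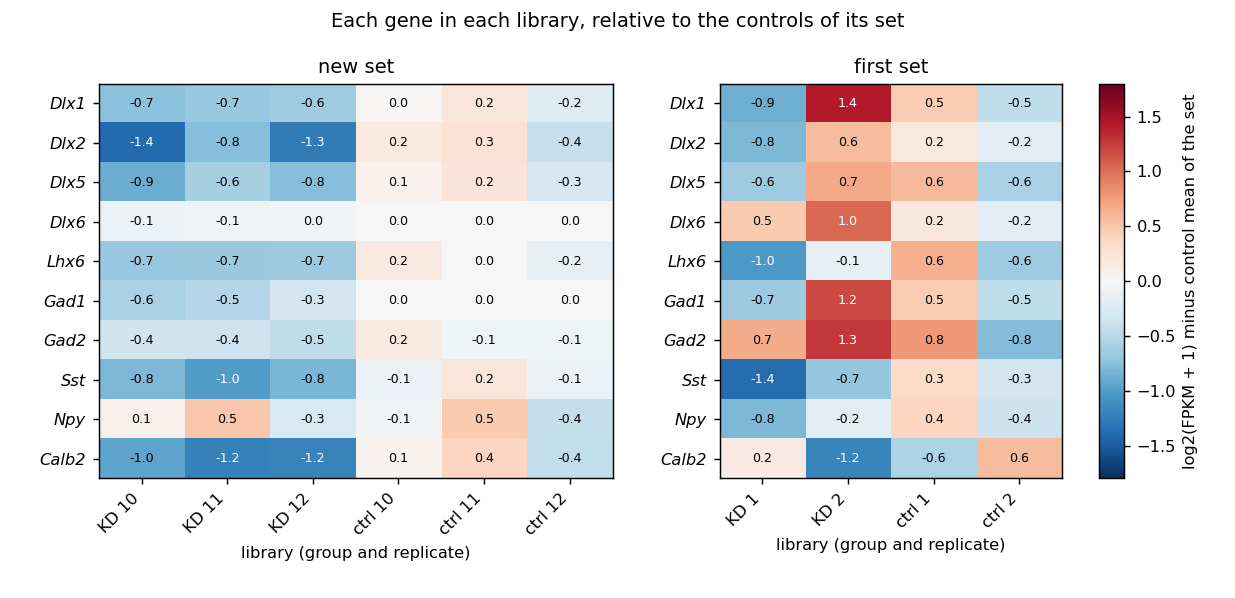
log2(FPKM + 1) of each gene in each library minus the mean of the controls of its set, with knockdown libraries left of controls (blue lower, red higher). The new-set knockdown columns are blue for all genes but Npy, with values near 0 for Dlx6, and in the first set knockdown 2 lies above knockdown 1 and control 1 above control 2 for 9 of the 10 genes.

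Mean levels of several genes also differed between the sets, given side by side with no test. Control Dlx5 averaged 1.61 FPKM in the new pools and 9.39 FPKM in the first ones, and control Gad2 averaged 0.657 and 2.81 FPKM. Control Sst was close in both, at 10.6 and 10.3 FPKM.

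A joined fit took the mean of the knockdown effects of both sets for the 6 genes tested in both. Sst (log2 fold change −0.96, SE 0.171, limma adjusted p = 0.00285) and Calb2 (−0.82, SE 0.284, adjusted p = 0.0475) were called lower and 0 were called higher, where the fit called 20.5% of 10827 genes lower and 9.37% higher. The median of the 6 was −0.63, against −0.11 over all genes tested. Sst was lower than every control of its set in 5 of 5 knockdown pools, and its exact permutation p was 0.0167, the smallest this design allows. That p is not adjusted for picking Sst among the 10 genes, and the share of all genes with this pattern was not counted. Calb2 lost its call with the replicate numbers as a block (adjusted p = 0.0922), in a fit that weights the sets by their own spread (0.0611), after rescaling by median ratios (0.0550), with no minimum (0.0609), and without any 1 of 7 of the 10 libraries. Those were control 2 and knockdown 2 of the first set and all new-set pools but control 12, with an adjusted p of up to 0.192. Dlx2 (−0.63, adjusted p = 0.0806), Lhx6 (−0.63, adjusted p = 0.0645), Dlx5 (−0.37, adjusted p = 0.328) and Npy (−0.20, adjusted p = 0.540) were not called. With no minimum Sst alone was called lower (14% of genes were) and Dlx6 was called higher (adjusted p = 0.0346, 20.4% of genes were). Without knockdown 2 of the first set Dlx2, Dlx5 and Lhx6 were called lower (adjusted p = 0.00464, 0.0429 and 0.0188), and without control 2 of that set Lhx6 was (0.00783).

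The difference between the sets, new-set change minus first-set change, was called for 0 of the 6 genes, with 0 at an unadjusted p under 0.05, where limma called 32.5% of all genes. The differences were −1.02 for Dlx2 (SE 0.510, adjusted p = 0.145), −0.77 for Dlx5 (SE 0.544), −0.61 for Calb2 (SE 0.568), −0.08 for Lhx6 (SE 0.473), 0.16 for Sst (SE 0.343) and 0.61 for Npy (SE 0.456). Smaller differences between the sets were not detectable with SEs of this size. Without knockdown 1 of the first set, 2 of the 6 (Dlx2 and Dlx5) were called with the lower change in the new set, against 9.98% of all genes in the full fit. With no minimum Dlx6 was called in that direction (adjusted p = 0.0145), where 21.9% of genes were.

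**Figure D4:**
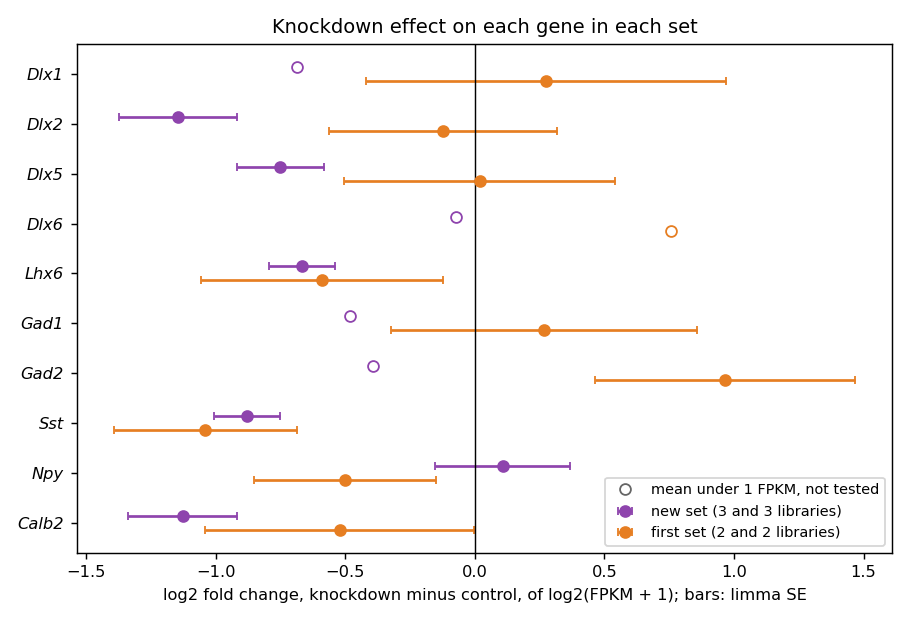
log2 fold change, knockdown minus control, of log2(FPKM + 1) for each gene in the new set (purple) and the first set (orange), with limma SE bars and open circles for genes under the minimum. Sst lies at −0.88 in the new set, close to −1.04 in the first, the Dlx and Gad genes lie left of 0 in the new set and on both sides of it in the first, and first-set bars are wider.

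Calb2 is also a gene of Cajal-Retzius cells, the early neurons of the marginal zone that secrete reelin. The other 10 Cajal-Retzius genes found summed to 11.6, 8.52 and 8.76 FPKM in the new knockdown pools, against 19.4, 17.8 and 14.7 FPKM in the controls, without overlap. Reln, the reelin gene, had 1.14, 1.23 and 0.705 FPKM in the knockdown pools, against 4.12, 2.80 and 2.40 FPKM in the controls (log2 fold change −1.01, SE 0.185, limma adjusted p = 0.0226). Of 4 tested genes of that list, Calb2 included, 2 fell (Reln and Calb2), where limma called 5.15% of all tested genes lower. The list median, also with Calb2, was −0.78, against 0.02 over all genes. The first-set sum without Calb2 was 8.32 and 8.88 FPKM with knockdown, against 5.12 and 7.91 FPKM in the controls. The part of these cells in the Calb2 result was not tested.

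Markers of other cells moved in the new set too. The 8 erythroid genes summed to 115, 23.6 and 57.5 FPKM in the knockdown pools, against 217, 280 and 149 FPKM in the controls, all knockdown pools being lower. The 7 microglia genes summed to 5.08, 3.85 and 1.53 FPKM in the knockdown pools, against 7.15, 7.64 and 2.45 FPKM in the controls, overlapping as groups but lower in all 3 pairs of the same number. The first-set microglia genes summed to 10.3 and 21.8 FPKM with knockdown, against 1.47 and 5.21 FPKM in the controls, and erythroid genes to 1.41 and 43.3 FPKM, against 16.6 and 19.01 FPKM in the controls. Knockdown 2 of that set, which had the higher level of 9 of the 10 interneuron genes among the knockdown pools, was also the higher for both of these lists. The controls of that set went the other way. Control 1 had the higher level of 9 of the 10 interneuron genes but the lower sum of both lists. The choroid plexus list reached 44.2 FPKM in knockdown 10 of the new set and at most 0.678 FPKM in the new controls. Endothelial, oligodendrocyte precursor and meningeal lists each summed to at most 2.91 FPKM in any new-set library. For the first set, choroid plexus genes summed to 6.34 to 7.66 FPKM with knockdown, against 0.577 to 1.998 FPKM in the controls, and endothelial genes to 11.18 to 13.3 FPKM, against 11.19 to 16.5 FPKM in the controls. Meningeal and oligodendrocyte precursor lists there stayed at or below 1.93 FPKM. The part of these cells in the interneuron results was not tested.

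Other genes of the interneuron lineage were read from lists of related factors and pathways. Of the 23 further ventral transcription factors found, 9 were tested in the new set, and 1 fell and 0 rose, with a median of −0.38. Of 14 tested in the first set 1 fell. Over all tested genes limma called 5.15% lower and 3.84% higher in the new set, and 10.7% lower and 13.2% higher in the first. In the joined fit, which called 20.5% of all genes lower, 3 of 9 fell: Sox6 (−0.78, adjusted p = 0.00210) and Satb1 (−0.61, adjusted p = 0.0127), both needed by mouse interneurons of the medial eminence, and Npas3 (−0.48, adjusted p = 0.0326). Nkx2-1, which specifies the medial eminence, averaged 0.0539 FPKM in the new knockdown pools and 0.1003 FPKM in the controls, and 1.64 FPKM in the first-set knockdown pools and 0.314 FPKM in their controls. Those first-set knockdown pools carried the olfactory receptor background, and its part in the Nkx2-1 level was not tested.

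Of the 10 genes of GABA transport and breakdown, 6 were tested in the new set and 1 fell, with a median of 0.07. Slc32a1, the vesicular GABA transporter, stayed at or below 0.107 FPKM in every library. Of 7 tested in the first set 1 fell and 1 rose, where 10.7% of all tested genes fell and 13.2% rose. Among these 7, Slc6a11, a GABA transporter gene, reached the minimum only through the knockdown pools, at 2.25 FPKM against 0.598 FPKM in the controls. In the new set 5.15% of all tested genes fell. In the joined fit Gphn, the scaffold protein of inhibitory synapses (−0.48, adjusted p = 0.0105), and Slc12a2, a chloride importer (−0.61, adjusted p = 0.0136), fell. Gphn fell by 0.96 in the first set (adjusted p = 0.0382) and had a log2 fold change of 0.01 in the new set (adjusted p = 0.979), a called difference (0.97, adjusted p = 0.00924). Abat, which breaks down GABA, had −0.49 in the joined fit (adjusted p = 0.0687), with 0.13 in new-set pools and −1.10 in first-set pools, and these differed (adjusted p = 0.0277).

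Of 18 further subtype genes found, 5 were tested in the new set and 1 fell. It was Nxph1, which encodes a secreted neurexin ligand (−0.81, SE 0.190, limma adjusted p = 0.0407), at 0.481, 0.783 and 0.559 FPKM in the knockdown pools, against 2.49, 1.96 and 1.15 FPKM in the controls. It averaged 0.608 FPKM with knockdown and, like Dlx2, reached the minimum through its controls. Of 7 in the first set 3 rose and 1 fell, where 13.2% of all tested genes rose and 10.7% fell. Among these 7, Pnoc and Htr3a reached the minimum only through the knockdown pools. They averaged 2.96 and 1.97 FPKM with knockdown, against 0.290 and 0.315 FPKM in the controls. Those knockdown pools carried the olfactory receptor background, and its part in these counts was not tested. In the new set 5.15% of all tested genes fell. In the joined fit 1 of 4 rose, Penk, the enkephalin precursor (0.97, adjusted p = 0.00174), and 1 fell, the receptor gene Kit (−0.70, adjusted p = 0.00425), with Nos1 at −0.17 (adjusted p = 0.476). That fit called 9.37% of all genes higher and 20.5% lower. Kit differed between the sets, with a log2 fold change of 0.11 in the new set, against −1.51 in the first (difference 1.61, adjusted p = 0.00213). Vip and Pvalb averaged at most 0.0344 FPKM in the new knockdown pools and were listed at 0 in all new controls.

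Genes of migration and GABA reception are in part shared with dorsal neurons. Of 12 tested migration genes 3 rose and 0 fell in the new set, where 3.84% of all tested genes rose and 5.15% fell (Plxna4 0.58, Ntrk2 0.56 and Dcx 0.49 on the log2 scale, with limma adjusted p of 0.0330, 0.0237 and 0.0354), and in the first set 4 fell and 0 rose, where 10.7% of all tested genes fell and 13.2% rose. Dcx, a microtubule protein of migrating neurons, fell by 1.34 in the first set, and the difference of 1.83 was called (adjusted p = 0.00116). Epha4 (−0.55, adjusted p = 0.00217) and Nrp1 (−0.59, adjusted p = 0.00263), both guidance receptors, fell in the joined fit with Dcx (−0.42, adjusted p = 0.0344). New-set Epha4 averaged 38.7 FPKM with knockdown and 42.4 FPKM in the controls, with overlap, and first-set Epha4 averaged 30.6 and 61.0 FPKM. Nrp1 averaged 45.7 and 60.2 FPKM in the new set, and 55.0 and 96.6 FPKM in the first. Of 8 tested GABA receptor genes 1 rose in the new set, Gabra5 (0.66, SE 0.136, adjusted p = 0.0292), and 1 of 6 fell in the first set. The receptor list had a median of 0.37 in the new set (0.02 over all tested genes) but −0.60 in the first (−0.15). Gabra4 (−0.61, adjusted p = 0.0143) fell in the joined fit, where Gabrb2 had −0.22 (adjusted p = 0.303) and Gabbr1 0.12 (adjusted p = 0.447).

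The genes whose profile over the 10 libraries was nearest to the mean of the 6 tested interneuron genes were Acrbp, Kars, Ostm1, Smpdl3b and 4930503L19Rik. Their root mean square differences on the log2 scale were 0.160 to 0.174, against a median of 0.562 over 10821 candidates. Kars, which encodes a lysyl-tRNA synthetase, had 40.2, 33.5 and 36.9 FPKM in the new knockdown pools, against 60.2, 68.9 and 59.6 FPKM in the controls. With the other shRNA it had 119.7 and 142.9 FPKM in the knockdown pools, against 220.0 and 171.8 FPKM in the controls. These 5 genes were picked for a profile near that of the interneuron mean, so their lower level in the new knockdown pools follows from the choice.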

How the data were processed

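RNA sequencing libraries were made from sorted GFP-positive cells with an RNeasy Plus kit and a Clontech low-input kit, per the labels' protocols. TopHat2, Bowtie, Cufflinks 2.0.0, Cuffdiff and build mm9 are named per the submitters' processing notes. The sources used here do not give the annotation, the read filters or the strand setting. The authors deposited FPKM, 1 column per library, in 2 tables made separately, so fold changes stay within a table.

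Values were taken as log2(FPKM + 1). Genes whose mean reached 1 FPKM in a table were tested with limma 3.58.1 in R 4.3.3 (trend, two-sided, 4 residual degrees of freedom for the new set, 2 for the first and 6 joined) and called at a Benjamini-Hochberg adjusted p under 0.05 over all tested genes. The joined fit shares 1 variance between sets. Absolute depth is unknown, and the small number of pools limits precision. P-values measure the spread between these pools of embryos. Fits were tested on simulated data.

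In the new set the deviations of knockdown and control pools with the same replicate number correlated at 0.122, 0.242 and 0.193 across genes. Pools of different numbers correlated at −0.162 to −0.0133. The sample titles give no pairing, and deviations within a group sum to 0, so these values do not settle whether the numbers pair the pools. The main fits and the permutation tests treat the pools as unpaired. With the block limma called 2452 genes in that set, against 1015 without it, and the same 5 interneuron genes. In the first set pools of the same number correlated at −0.0285. With 2 pools per group the deviations mirror each other, so that value cannot show whether the numbers pair the pools.

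The 10 genes and the other lists were chosen with earlier results of these data known. Named besides the 10 and Chd8 are up to 3 genes of each pathway list with the smallest joined p and the 5 genes of nearest profile. Slc32a1, Slc6a11, Nxph1, Pnoc, Htr3a, Reln, Gabra5, Plxna4, Ntrk2, Nkx2-1, Vip, Pvalb, new-set Dcx, and the antisense partners were chosen after their values were seen. Some genes counted in the lists are not reported here by name. Lists of dorsal cortex, Cajal-Retzius, erythroid, microglia, endothelial, oligodendrocyte precursor, choroid plexus and meningeal genes were summed per library. Alternatives were another pseudocount, other minima, rescaling, no trend, the block, subtraction of the olfactory receptor background and leaving out each library. Promoter sequences are from RefSeq, build GRCm38.p6, and no coordinates were joined to the FPKM, which use mm9.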

Additional observations from a re-analysis of the deposited data

Results flagged for a closer look

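Dlx6 moved in opposite directions in the sets, lower than every control in the 3 new knockdown pools and higher than every control in the 2 first-set knockdown pools. The new-set log2 fold change minus the first-set one was −0.83. Dlx6 was under the 1 FPKM minimum in both sets, so with that minimum this difference was not tested. In a fit with no minimum its adjusted p was 0.0145, where limma called 21.9% of genes in that direction. The new-set levels came to at most 2 steps of the smallest value. The first-set knockdown levels, 0.601 and 1.35 FPKM, stood beside an olfactory receptor mean of 0.672 and 0.557 FPKM without pseudogenes. With pseudogenes that mean was 1.39 and 0.993 FPKM. The part of that background was not tested for Dlx6 alone.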

How the results depend on the processing

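With a pseudocount of 0.1 FPKM, with rescaling by median ratios, without the trend and with the replicate block, the 5 interneuron genes called lower in new-set pools stayed at 5. With no minimum Sst and Lhx6 kept their calls. Dlx2, Dlx5 and Calb2 lost theirs (limma adjusted p = 0.0557, 0.0541 and 0.0512). A minimum of 5 FPKM left 1 call (Sst), because fewer genes are tested. The count over all genes in the new set was 470 with no minimum, 2452 with the replicate block and 88 to 1883 on leaving out each library, and interneuron calls there ran from 0 to 5. In the first set the count was 1602 with a minimum of 5 FPKM and 713 to 1247 on leaving out each library. The block there gave 2719 calls, but pools of the same number correlated at −0.0285, which with 2 pools per group cannot show whether they are pairs. Subtracting the olfactory receptor background gave 870 higher and 1976 lower in place of 1639 and 1332, and 1 interneuron call (Sst, adjusted p = 0.0490). With pseudogenes left out of that background, a choice made after seeing the data, it gave 1165 higher, 1691 lower and 0 interneuron calls (Sst, adjusted p = 0.0531). It turned the first-set log2 fold changes of Dlx1, Dlx5 and Gad1 to −0.29, −0.21 and −0.28, and to −0.066, −0.090 and −0.12 without pseudogenes. It also turned the difference between sets for Lhx6 to 0.50 (0.33 without pseudogenes), for Calb2 to 0.012 (−0.16) and for Chd8 to 0.042 (−0.050). The cause was not tested.

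In the joined fit the count over all genes was 5917 with no minimum. Interneuron calls lower were 1 with no minimum, a minimum of 5 FPKM, rescaling, the replicate block or the set-weighted fit (added after seeing the data), 4 with either background subtracted and 1 to 4 on leaving out each library. Over all genes the joined fit called 2223 lower, and 3477 with the background subtracted (2891 without pseudogenes). The settings that left 1 interneuron call lower called 1625 to 2515 genes lower. Leaving out a new-set pool gave 1610 to 2224. With no minimum 1 interneuron gene (Dlx6) was called higher. The difference between sets gave 6345 calls and 1 interneuron gene (Dlx6) with no minimum, and 0 to 2 on leaving out each library.

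Leaving out each library also turned the sign of small changes, with ranges of −0.10 to 0.35 for new-set Npy and, for first-set values, −0.87 to 1.42 for Dlx1, −0.81 to 0.57 for Dlx2, −0.64 to 0.68 for Dlx5, −0.66 to 1.19 for Gad1 and −1.19 to 0.15 for Calb2. For the difference between sets they were −0.52 to 0.56 for Lhx6, −0.19 to 0.51 for Sst and −1.28 to 0.065 for Calb2. Where 1 library of a first-set group remained, it was assumed to vary like the other group.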
